A study of Mus musculus with 8 samples.

Results

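Carbonic anhydrases are zinc enzymes that interconvert carbon dioxide and bicarbonate, and so set pH and supply the ions that transporters move. In the gut, cytosolic forms feed bicarbonate secretion and sodium and chloride uptake from inside the cell, while membrane-bound forms work on the outer face, next to bicarbonate exchangers. Car9 and Car12 are known as genes induced by low oxygen in many tumors, and some family members, Car8 among them, have lost the catalytic activity. The 9 genes described here, Car1, Car2, Car3, Car4, Car8, Car9, Car12, Car13 and Car14, were chosen by symbol, and all 9 were found among the 43629 genes of the count table. The mouse family holds 7 further genes, which are given at the end of the family's results.

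RNA-seq libraries of polyadenylated RNA were made from 4 samples of tumor and 4 samples of small intestine. All came from mice labelled as Apc mutant on a C57B6/129 background with no treatment, so the controls carry the Apc mutation too. The Apc allele, the age, the stretch of intestine and the animal behind each library are not given in the labels, so p-values reflect the spread among these 8 samples alone, which may be technical. Gene-assigned reads numbered 53856561 to 67371180 per tumor library and 62347648 to 84433335 per small intestine library. Summed epithelial markers (8 genes, among them Epcam and Cdh1) were present at 6378 to 9059 CPM in tumor against 21280 to 29608 CPM in small intestine, where CPM is reads scaled to a common library size after trimmed-mean (TMM) correction. Absorptive enterocyte markers (12 genes) summed to 385 to 734 CPM in tumor against 55162 to 68055 CPM in small intestine, and fibroblast markers (8 genes) to 1487 to 2448 CPM in tumor against 29.2 to 72.2 CPM in small intestine. In such bulk samples fewer cells of a type and less RNA per cell cannot be told apart.

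Promoter windows show the sequence context of the 3 membrane-bound members that carried most of the family's membrane-bound signal. Each window runs from 250 bases before to 50 bases after the gene's RefSeq start (GRCm38.p6), 5′ to 3′ on the gene's own strand, and capitals mark matches to 3 searched motifs. These were the core of the hypoxia response element (ACGTG, also with G as its first base), the TCF/LEF core through which beta-catenin acts (CTTTG followed by 2 bases that are each A or T) and the TATA box (TATAAA), each on both strands. ACGTG also lies inside the E-box CACGTG, which none of the printed windows holds.
Car9 (chr4:43506776-43507075, plus strand): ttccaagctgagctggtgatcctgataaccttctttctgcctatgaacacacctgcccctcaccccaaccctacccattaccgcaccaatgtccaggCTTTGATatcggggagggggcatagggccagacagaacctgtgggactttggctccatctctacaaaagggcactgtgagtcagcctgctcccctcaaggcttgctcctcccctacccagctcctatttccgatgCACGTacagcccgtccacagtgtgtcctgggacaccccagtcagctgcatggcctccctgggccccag
Car12 (chr9:66713436-66713735, plus strand): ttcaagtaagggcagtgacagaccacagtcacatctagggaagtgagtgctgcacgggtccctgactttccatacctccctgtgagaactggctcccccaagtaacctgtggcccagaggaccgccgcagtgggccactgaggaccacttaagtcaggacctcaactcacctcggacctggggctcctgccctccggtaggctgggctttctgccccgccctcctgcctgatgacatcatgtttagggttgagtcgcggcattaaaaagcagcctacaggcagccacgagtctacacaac
Car4 (chr11:84957504-84957803, plus strand): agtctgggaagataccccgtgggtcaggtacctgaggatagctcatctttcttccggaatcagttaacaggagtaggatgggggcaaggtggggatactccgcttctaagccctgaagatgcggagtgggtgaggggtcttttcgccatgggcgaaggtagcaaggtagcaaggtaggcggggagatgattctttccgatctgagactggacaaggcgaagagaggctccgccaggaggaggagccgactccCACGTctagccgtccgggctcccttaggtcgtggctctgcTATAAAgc
The Car9 window held a hypoxia core on the opposite strand 18 bases before the RefSeq start and a TCF/LEF core 153 bases before it. In human CA9 a hypoxia response element just before the start is known. The Car12 window held none of the 3 motifs, and Car4 held a hypoxia core just after the RefSeq start and a TATA box further downstream. These distances hold for the RefSeq starts alone. The gene coordinates given below (GENCODE M21) start further upstream for Car9, at 43506966, and further downstream for Car4, at 84957786. Of all 32851 windows in the table, 43.8% held a hypoxia core, 16.9% a TCF/LEF core and 13.6% a TATA box, so a match is a description of these letters and not a binding site. The table held windows for 4 of the 9 members, the other being Car14, which held 1 hypoxia core.

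In tumor, Car3, Car4, Car8 and Car13 fell and no member rose, as read counts scaled by TMM showed. Of the 9 members 8 were tested, 4 were called lower and 4 missed an adjusted p of 0.05 in edgeR (quasi-likelihood, Benjamini-Hochberg). Among all 17029 genes tested 74.3% were called, 35.4% lower and 38.9% higher in tumor, so a call was common among all genes. The tested members had a median log2 fold change of -0.93 and all tested genes one of 0.07. The scaling between tissues bears on several members. With library totals in place of TMM the median of all genes shifted upward by 0.86 (log2), Car9 became higher and Car8 was no longer called. On that scale 3 members were lower and 1 was higher, where 17.6% of all genes were lower and 62% higher (79.6% called). The deposited FPKM values (fragments scaled for transcript length and library depth) of 7 members tested gave 2 lower, Car4 and Car13, and 1 higher, Car9, in limma, where 18.1% of genes were lower and 64.6% higher (82.7% called). The CPM ranges of tumor and small intestine did not overlap for 4 of the 9 members, Car3, Car4, Car8 and Car13, where 70.5% of all tested genes had ranges apart, 33% with tumor below.

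**Figure D1:**
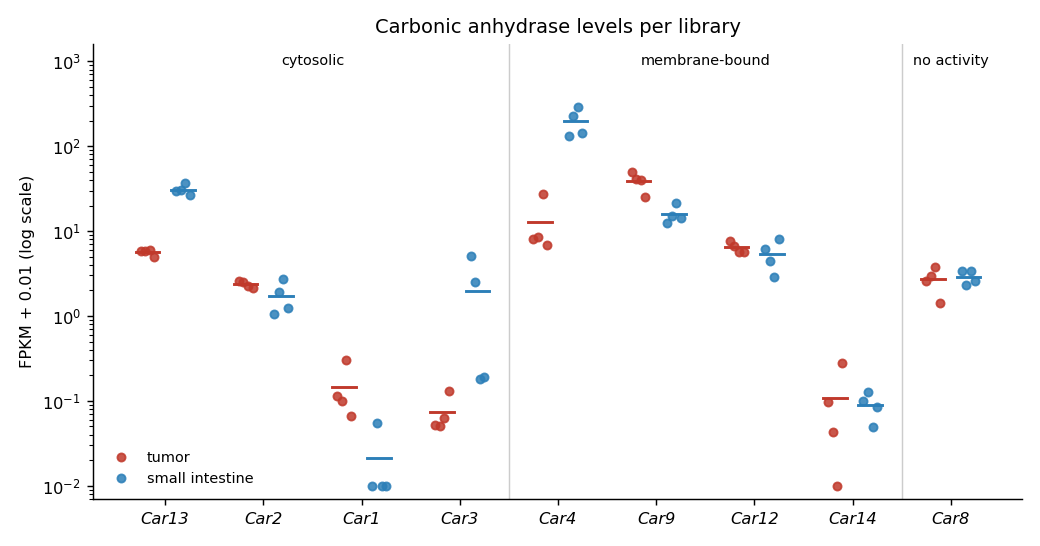
FPKM plus 0.01 (log axis) of the 9 members in each of 4 tumor and 4 small intestine libraries, with dots for libraries and bars for means, grouped by where the protein works. Mean Car4 was 12.7 FPKM in tumor, against 197 FPKM in small intestine. Car9 was the only member whose tumor dots all lie above those of small intestine at more than 1 FPKM. In FPKM 64.6% of all genes tested were called higher in tumor, and the share with ranges apart was not computed. As TMM-scaled CPM the Car9 ranges overlapped.

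The genes of 4 cytosolic enzymes, Car13, Car1, Car3 and Car2, lie in this order on chromosome 3 from 14641727 to 14900770 (GRCm38), a stretch of 259 kb. Their tumor values did not move together. Car13 (ENSMUSG00000027555, plus strand), an isozyme found in gut epithelium, was at 8.87, 9.11, 9.58 and 7.41 CPM in tumor, against 88.7, 93.4, 113 and 81.9 CPM in small intestine. Each tumor library was far below each small intestine library, and the spread within either tissue was small. The log2 fold change was -3.43 ± 0.13 (SE), with an edgeR adjusted p of 7.36e-08. It was -2.57 with library totals and -2.25 in the FPKM table, called in both.

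Car2, the fast and widespread cytosolic form, was at 3.42, 3.74, 3.41 and 3.07 CPM in tumor against 2.81, 4.95, 6.97 and 3.72 CPM in small intestine. The tumor libraries lay close together inside the wider range of small intestine. The fold change on the log2 scale, -0.44 ± 0.28, missed the threshold (edgeR adjusted p = 0.184) and turned to 0.43 with library totals (adjusted p = 0.199) and 0.34 in the FPKM table (limma adjusted p = 0.108). Without small intestine replicate 1 it was called lower in counts (-0.62, edgeR adjusted p = 0.0469), and without small intestine replicate 3 it was called higher in FPKM (0.51, limma adjusted p = 0.00954). Car1, a cytosolic form known from red cells and colon epithelium, had 4, 3, 17 and 2 reads in tumor and 0, 3, 0 and 0 reads in small intestine. It was too low to be tested. Scaled for library size, the summed reads had a ratio of 5.74 (95% exact binomial interval 1.76 to 29.6), and of 2.53 (0.633 to 14.6) without tumor replicate 3, which held 17 of the 26 tumor reads. With library totals the ratio was 10.5 (3.22 to 54.2). These intervals cover counting error alone and not the spread between libraries. An annotated gene, Gm16399, overlaps Car1 on the same strand. Red cell markers (9 genes found) summed to 20.9 to 38.9 CPM in tumor against 2.50 to 14.4 CPM in small intestine, and tumor replicate 3 was the lowest tumor library for them. Their part in Car1 and Car2 was not tested.

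Car3, a low-activity cytosolic form abundant in fat and muscle, had 1, 2, 1 and 6 reads in tumor, against 650, 339, 12 and 26 reads in small intestine. The tissues did not overlap, but small intestine replicates 1 and 2 lay far above replicates 3 and 4. As CPM these were 0.0110, 0.0248, 0.0140 and 0.0677 in tumor and 11.3, 5.99, 0.252 and 0.448 in small intestine. The log2 fold change was -7.15 ± 1.40 (edgeR adjusted p = 0.00123), and -6.34 with library totals (edgeR adjusted p = 0.00243). In the FPKM table the difference of -1.13 did not pass (limma adjusted p = 0.0636). It passed there with a pseudocount of 0.1 (-2.64, limma adjusted p = 0.0294), without small intestine replicate 3 (-1.46, limma adjusted p = 0.0239) and without small intestine replicate 4 (-1.45, limma adjusted p = 0.0234). Without small intestine replicate 1 or 2 its mean FPKM was too low for that test.

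Some of the listed adipocyte transcripts were highest in the same libraries, and others were not. Adipoq, the gene of a fat cell hormone, had 0 reads in each tumor library and 160, 84, 1 and 3 reads in small intestine. Cfd, which encodes adipsin, had 0 reads in each tumor library and 714, 254, 0 and 17 reads in small intestine. Small intestine replicates 1 and 2 were the highest libraries for Car3, Adipoq and Cfd alike. Fabp4, a fatty acid binding protein gene on the same list that is also known from endothelium, was present in all tumor libraries, at 9.29 to 10.1 CPM in tumor against 14.1, 6.17, 0.672 and 1.17 CPM in small intestine. Its log2 fold change of 0.80 missed the threshold (edgeR adjusted p = 0.364). Plin1 and Retn had 1 and 2 reads in tumor replicate 3 and 0 in the other tumor libraries, against 39 and 38 reads in small intestine replicate 1, 28 and 20 in replicate 2, and 0 in replicates 3 and 4. Of the adipocyte list (10 genes) 5 were tested and 4 were lower in tumor, where 35.4% of all genes tested were lower. The list summed to 21.5 to 28.9 CPM in tumor against 222, 189.8, 222 and 269 CPM in small intestine, highest in replicate 4. In small intestine the sum was led by Lipe (130, 127, 141 and 141 CPM) and Cidec (57.1, 47.9, 78.6 and 126 CPM). Neither was highest in replicates 1 and 2. Without small intestine replicates 1 and 2 the Car3 log2 fold change was -3.50 (edgeR adjusted p = 0.00302), a comparison chosen after these values were seen, and the small intestine libraries kept in it still held reads of Adipoq. The part of fat cells in the Car3 level was not tested. Skeletal muscle genes went different ways. Myosin genes Myh2 and Myh4 had 0 reads in each library. Acta1 was at 1.23 to 2.01 CPM in tumor against 68.2, 179, 9.51 and 48.4 CPM in small intestine. Ckm had 1, 3, 25 and 14 reads in small intestine, most in replicates 3 and 4. Tnni2 was higher in tumor (log2 fold change 2.51, edgeR adjusted p = 0.00373) and Mylpf lower (-0.89, edgeR adjusted p = 0.00762). The part of muscle in the Car3 level was not tested.

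**Figure D2:**
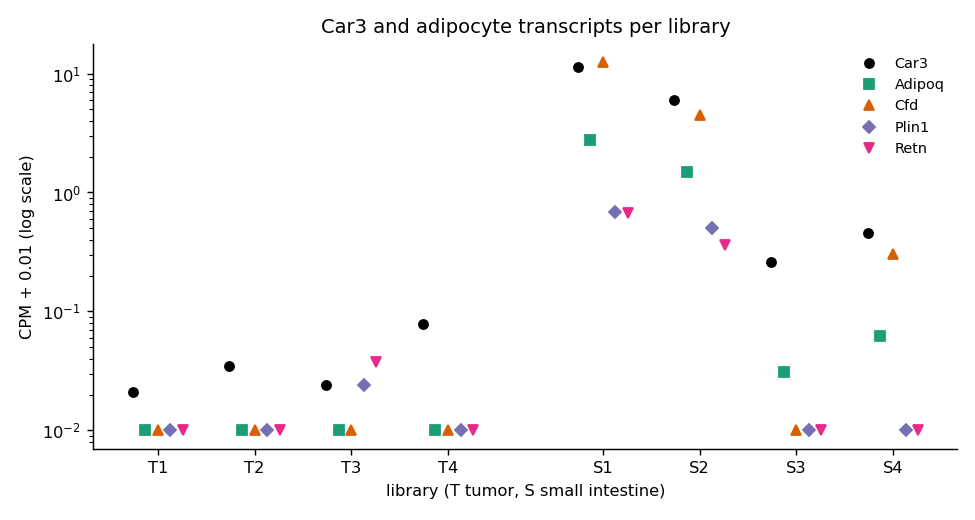
CPM plus 0.01 (log axis) of Car3 and 4 of the 10 listed fat cell genes in each tumor (T) and small intestine (S) library. Lipe and Cidec, which are not drawn, were not highest in S1 and S2. Car3 was at 11.3 and 5.99 CPM in S1 and S2, where Adipoq was at 2.78 and 1.49 CPM, and at 0.448 CPM or less in the other 6 libraries.

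Among the membrane-bound forms, Car4 fell and the others did not pass the count test. Car4 (ENSMUSG00000000805, chromosome 11 from 84957786 to 84966044, plus strand, GRCm38) encodes an enzyme held on the outer cell surface by a lipid anchor. It was at 8.39, 8.94, 30.3 and 6.73 CPM in tumor, against 209, 398, 465 and 266 CPM in small intestine. Tumor replicate 3 stood above the other tumor libraries, and no tumor library reached the small intestine range. The log2 fold change was -4.62 ± 0.56, or 24.6-fold lower in tumor by the means (edgeR adjusted p = 5.12e-05), and -5.35 without tumor replicate 3. Library totals gave -3.77 and FPKM -4.004, both called. Car4 is known from enterocytes and from capillary endothelium. In tumor replicate 3 enterocyte markers summed to 439.6 CPM, with the other tumor libraries at 385 to 734 CPM. Within that list Fabp1 was highest in replicate 3, at 1.55 CPM with the other tumor libraries at 0.210 to 0.474 CPM. Apoa4, Apoc3, Fabp2, Lct, Treh and Anpep were lowest there, and the rest lay between. Endothelial markers summed to 170 CPM there, with the others at 210.1 to 217 CPM. Within that list Cdh5, Kdr, Tie1 and Cldn5 were lowest in replicate 3, Tek was highest, at 5.61 CPM, and the rest lay between. The part of these cells in the Car4 level was not tested.

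The 3 genes whose profile over the 8 libraries lay nearest to that of Car4, out of 9645 with at least 10 CPM on average, were Capn9, H2-Q1 and Cldn15. Their Euclidean distances were 1.10, 1.15 and 1.17 on centred log2 CPM. Capn9 encodes a calpain protease of the gut and Cldn15 a claudin that forms cation pores, and both shared the split between tissues, with Capn9 at 1.95 CPM in tumor against 49.6 CPM in small intestine and Cldn15 at 22.1 CPM in tumor against 633 CPM in small intestine. H2-Q1 belongs to a group of near-identical histocompatibility genes, so its counts are uncertain.

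Car9 (ENSMUSG00000028463, chromosome 4 from 43506966 to 43513729, plus strand), a transmembrane enzyme with an outward-facing active site, had read counts that did not pass the test with TMM. It was at 78.1, 65.6, 63.7 and 38.1 CPM in tumor against 37.2, 46.3, 64.5 and 47.6 CPM in small intestine. Tumor replicates 1 and 2 lay above all small intestine libraries, whereas tumor replicate 4 lay among the lowest. The log2 fold change was 0.33 ± 0.23 (edgeR adjusted p = 0.217), and 0.54 without tumor replicate 4 (edgeR adjusted p = 0.0264). With library totals it was 1.19 ± 0.23 (edgeR adjusted p = 0.000985). In FPKM Car9 was at 49.5, 41.5, 40.0 and 25.3 in tumor, against 12.6, 15.2, 21.4 and 14.2 in small intestine. On that scale the tissues did not overlap, and the difference in log2(FPKM + 1) was 1.24 ± 0.22 (limma adjusted p = 0.000662). The Car9 change of 1.19 with library totals stood beside a median of 0.93 for all genes on the same scale. In the FPKM table the difference of 1.24 stood beside a median of 0.76 for all genes tested there, of which 64.6% were called higher. A shorter antisense gene, Gm12454, overlaps Car9 and held at most 295 reads in a library.

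Car12 (ENSMUSG00000032373, chromosome 9 from 66713686 to 66766845, plus strand), the other transmembrane form known to respond to low oxygen, was at 24.1, 20.6, 18.4 and 16.9 CPM in tumor against 35.8, 26.0, 16.7 and 51.4 CPM in small intestine. The tumor libraries lay within the wide range of small intestine. The log2 fold change of -0.70 ± 0.30 missed the threshold (edgeR adjusted p = 0.0564, from 0.00631 to 0.577 over the count alternatives), and turned to 0.18 with library totals and 0.28 in the FPKM table. It was called lower without small intestine replicate 3 (-0.92, edgeR adjusted p = 0.00631) and by DESeq2 (adjusted p = 0.0493). Car14 (ENSMUSG00000038526, chromosome 3 from 95897768 to 95904691, minus strand), a transmembrane form known from kidney and eye, had 15, 10, 7 and 15 reads in tumor and 15, 15, 5 and 20 reads in small intestine. These low counts overlapped, and the log2 fold change of -0.81 ± 0.41 did not pass (edgeR adjusted p = 0.101), turning to 0.07 with library totals. It passed without small intestine replicate 3 (-1.05, edgeR adjusted p = 0.0263). The Car14 gene overlaps Aph1a on the other strand, which held up to 5820 reads in a library, and the strand setting of the counting is not known.

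Car8 (ENSMUSG00000041261, chromosome 4 from 8143362 to 8239041, minus strand), which lacks catalytic activity and is known in brain as a partner of the inositol trisphosphate receptor, was at 7.93, 9.20, 11.9 and 4.19 CPM in tumor, against 19.7, 13.9, 19.9 and 15.3 CPM in small intestine. Every tumor library was below every small intestine library. The log2 fold change was -1.05 ± 0.29 (edgeR adjusted p = 0.00819). With library totals it was -0.20 and was not called (edgeR adjusted p = 0.544), and the FPKM difference was -0.10 (limma adjusted p = 0.649), turning to 0.08 without tumor replicate 4. The call for Car8 held with TMM and with DESeq2 size factors but not with library totals. Another annotated gene, Gm11799, overlaps Car8 on the same strand.

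**Figure D3:**
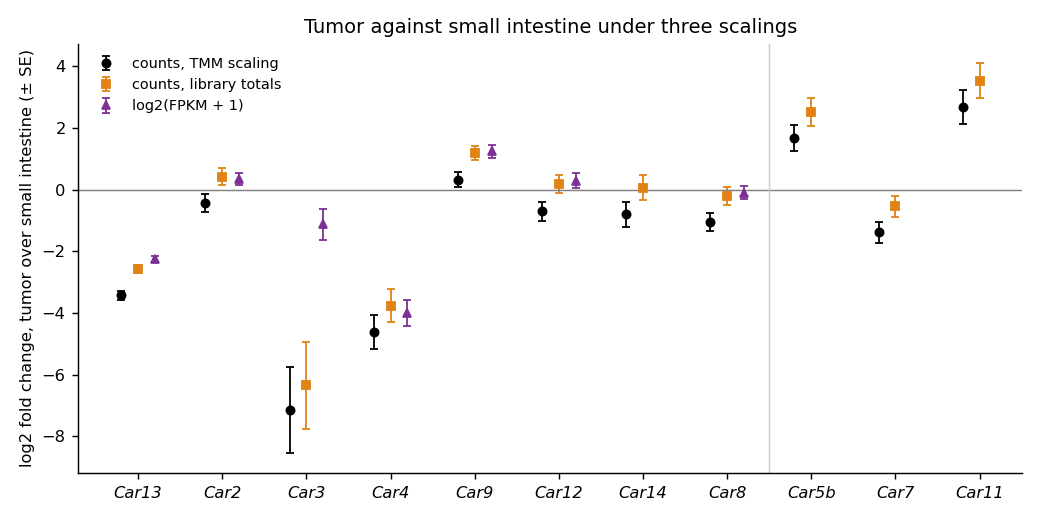
Log2 fold change of tumor over small intestine with its SE for 8 tested members and, right of the line, 3 other family genes, from counts with TMM scaling, from counts with library totals, and from log2(FPKM + 1) where tested. Car13, Car3 and Car4 lie below 0 on all scales, while Car2, Car12 and Car14 change sign between scales.

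Levels between genes can be compared per length, in FPKM. In tumor the order by mean was Car9 (39.0 ± 10.1 FPKM, SD, n = 4), Car4 (12.7 ± 9.79), Car12 (6.43 ± 0.977), Car13 (5.65 ± 0.446), Car8 (2.70 ± 0.992), Car2 (2.36 ± 0.227), Car1 (0.136 ± 0.109), Car14 (0.0967 ± 0.119) and Car3 (0.0639 ± 0.0376). Neighbours in this order overlapped in their library ranges, except that Car13 lay above Car8, and Car2 above Car1. In small intestine the order by mean was Car4 (197 ± 74.4 FPKM, SD, n = 4), Car13 (30.8 ± 4.52), Car9 (15.8 ± 3.84), Car12 (5.37 ± 2.26), Car8 (2.89 ± 0.527), Car3 (1.97 ± 2.31), Car2 (1.72 ± 0.751), Car14 (0.0802 ± 0.0325) and Car1 (0.0113 ± 0.0227). The first 4 were separated from each other there, Car2 lay above Car14, and the other neighbours overlapped. Car9 was thus first in tumor and Car4 first in small intestine. Among the 43437 genes of the FPKM table Car4 ranked 6251 by mean in tumor and 425 in small intestine, while Car9 ranked 2338 in tumor and 3913 in small intestine. The Car14 FPKM of tumor replicate 3 is listed near 0 although 7 reads were counted, so FPKM of such low genes are uncertain.

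The 9 members summed to 69.1 ± 16.6 FPKM in tumor and 256 ± 79.6 FPKM in small intestine (SD, n = 4 each). Without Car4 the sum was 56.5 ± 11.96 FPKM in tumor and 58.7 ± 6.31 FPKM in small intestine. Those close sums held a mean Car9 of 39.0 FPKM in tumor against 15.8 FPKM in small intestine and a mean Car13 of 5.65 FPKM in tumor against 30.8 FPKM in small intestine. The sums depend on the scaling: as TMM-scaled CPM the members without Car4 summed to 69.9 to 123 CPM in tumor against 191 to 221 CPM in small intestine. Shares within a library do not depend on it. Car4 held 10.5% to 32.0% of the sum in tumor and 69.5% to 81.0% in small intestine. Car9 held 46.8% to 64.7% in tumor and 5.34% to 7.29% in small intestine. The ratio of Car9 to Car4 was 1.46 to 6.14 in tumor libraries and 0.067 to 0.10 in small intestine libraries. The ratio of Car12 to Car13 was 0.952 to 1.34 in tumor, where the levels of both overlapped and Car13 was the higher in replicate 3, and 0.0765 to 0.305 in small intestine. These shares are descriptions with no test.

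**Figure D4:**
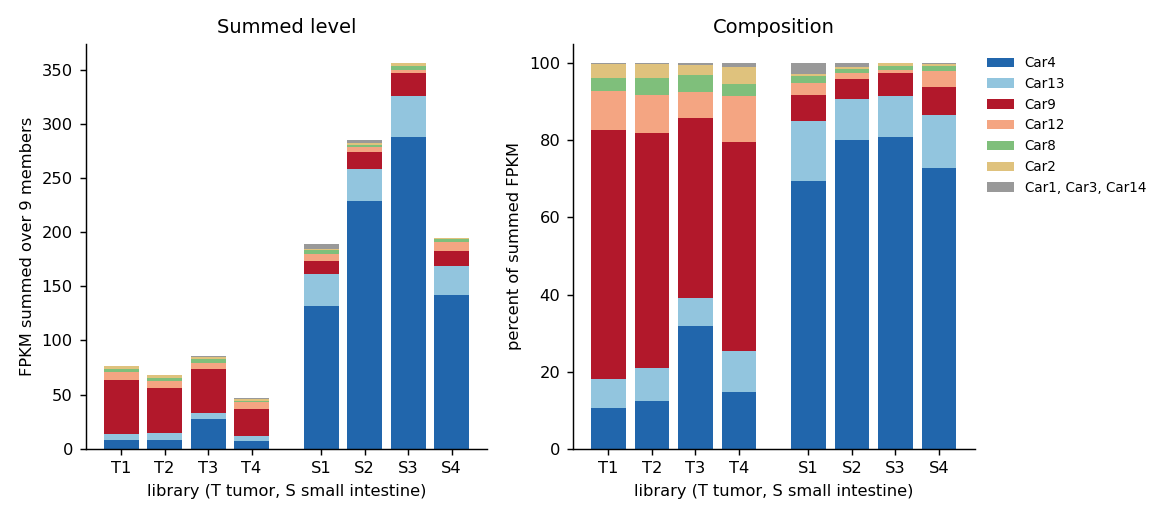
FPKM of the 9 members stacked per tumor (T) and small intestine (S) library, summed on the left and as percent of the sum on the right. Car9 fills 46.8% to 64.7% of the tumor bars and Car4 69.5% to 81.0% of the small intestine bars.

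The other 7 mouse family genes were low in both tissues. Of these, 3 were tested, 2 rose and 1 fell in tumor, where 38.9% of all genes tested rose and 35.4% fell. Car11, a relative without catalytic activity known from brain, was at 0.640, 0.235, 0.335 and 0.361 CPM in tumor against 0.104, 0.0177, 0.0840 and 0.0345 CPM in small intestine. The ranges were apart, with a log2 fold change of 2.69 ± 0.55 (edgeR adjusted p = 0.00155). Car5b, a mitochondrial form, showed 1.67 ± 0.42 (edgeR adjusted p = 0.00495) at 0.887 ± 0.207 CPM in tumor against 0.275 ± 0.162 CPM in small intestine (mean ± SD, 4 libraries each). Car7, a cytosolic form, showed -1.39 ± 0.34 (edgeR adjusted p = 0.00428), and lost the call with library totals (-0.54, edgeR adjusted p = 0.175). Car15, a lipid-anchored form, had 15 reads summed over tumor and 57 summed over small intestine and was not tested, although with no low-count filter and by DESeq2 it was called lower. Car10 had 0 reads in each library, and 3 reads correspond to 0.0331 to 0.0630 CPM at these depths. Car5a and Car6 had at most 8 reads in a tissue.

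Bicarbonate, proton and lactate transporters work next to these enzymes, and 21 of them were listed. Of 19 tested, 5 rose, 10 fell and 4 did not pass, with a median log2 fold change of -0.54. Among all genes tested 74.3% were called, 38.9% higher and 35.4% lower in tumor. With library totals 9 transporters rose and 6 fell, where 62% of all genes rose and 17.6% fell. Slc26a3, an apical chloride and bicarbonate exchanger, was at 2.39 ± 0.572 CPM in tumor against 201 ± 24.0 CPM in small intestine (mean ± SD, 4 libraries each), a log2 fold change of -6.40. Its relative Slc26a6 was at 8.36 ± 2.39 CPM in tumor against 638 ± 89.2 CPM in small intestine (-6.25). Slc4a10, a sodium-dependent bicarbonate transporter known from brain, was at 0.0146 ± 0.0173 CPM in tumor against 2.71 ± 1.41 CPM in small intestine (-7.34). Slc26a9, an ion transporter known from stomach surface epithelium, had 6610 reads in all over the tumor libraries, against 1 read in those of small intestine. The scaled ratio was 4380 (95% exact binomial interval 786 to 173008), where the interval covers counting error alone and not the spread between libraries. Adjusted p-values of these 4 were 2.91e-05 or less in edgeR, and each kept its direction with library totals. Stomach epithelium markers (10 genes) summed to 144 to 362 CPM in tumor against 0.265 to 0.556 CPM in small intestine, and 7 of 8 tested rose. Car9 is also known from stomach epithelium, and tumor replicate 4, the lowest tumor library for Car9, was the lowest for the sum of these markers, which Gkn3 and Muc6 lead, but the highest tumor library for Muc5ac at 6.46 CPM and Atp4a at 2.66 CPM. The part of such cells in the Car9 level was not tested.

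Hypoxia targets were set beside Car9 and Car12. Of 14 genes 7 rose, 2 fell and 5 did not pass, and the median was 0.41 on the log2 scale. Among all genes tested 38.9% rose and 35.4% fell, with a median of 0.07. With library totals 11 hypoxia targets rose and none fell, with a list median of 1.30. On that scale 62% of all genes rose and 17.6% fell, and their median was 0.93. Slc2a1, a glucose transporter, showed a log2 fold change of 2.89 ± 0.20, P4ha1, a collagen prolyl hydroxylase, 1.87 ± 0.27, Hk2, a hexokinase, 1.65 ± 0.41, and Bnip3, a mitophagy gene, 1.42 ± 0.21, with edgeR adjusted p-values of 1.49e-06 to 0.00482. Ndrg1, a stress-response gene, fell by 1.16 on the log2 scale (edgeR adjusted p = 3.61e-05) and stood at -0.30 with library totals (edgeR adjusted p = 0.0884). The Car9 value of 0.33 and the Car12 value of -0.70 with TMM stand beside these. With library totals Car9 was at 1.19 and Car12 at 0.18.

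**Figure D5:**
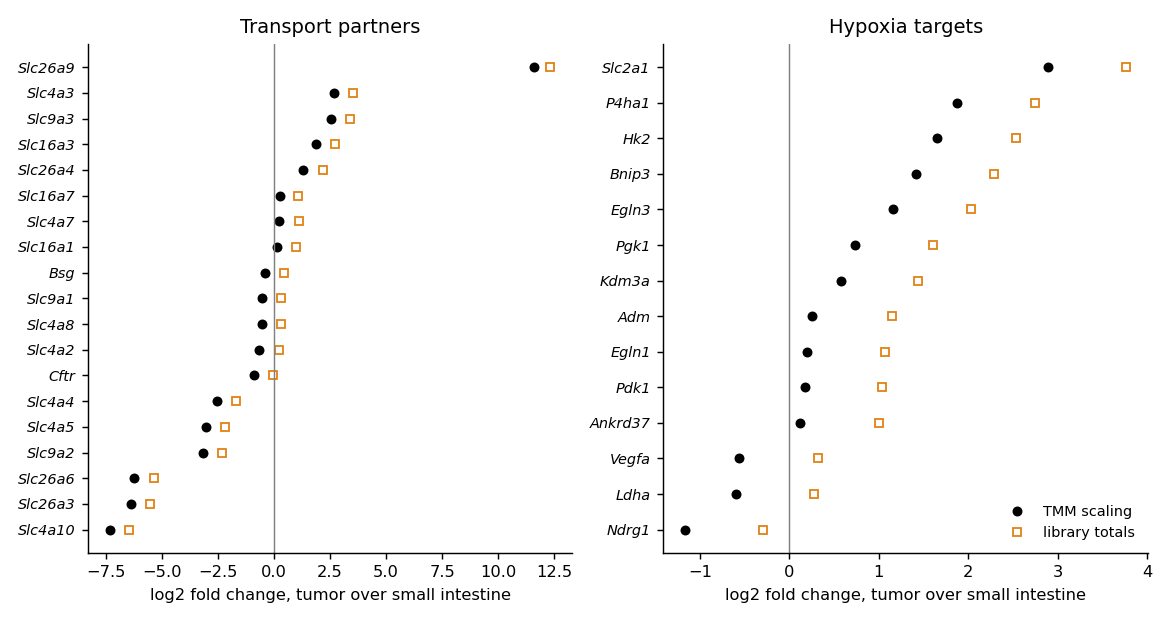
Log2 fold change of tumor over small intestine for the tested transport partners (left) and hypoxia targets (right), with TMM scaling (filled circles) and with library totals (open squares). Slc26a3, Slc26a6 and Slc4a10 lie far below 0 and Slc26a9 far above it on both scales, and the hypoxia targets lie between -1.16 and 2.89 with TMM.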

How the data were processed

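The authors deposited whole-number read counts per gene, which were used unchanged, and FPKM values that they had scaled for depth and length. Tools named in the submitters' processing notes were STAR, HTSeq 0.6.0, Cufflinks 2.2.1 and FastQC, with GRCm38 as the build. The annotation, parameters, strand handling and rule for reads shared by genes were not given in the sources used. Ensembl identifiers were matched to symbols for 42462 of 43629 genes, with coordinates of GENCODE M21 (GRCm38).

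Read counts of all genes were tested in edgeR 4.0.16 under R 4.3.3 (glmQLFit and glmQLFTest with TMM and filterByExpr, tissue being the only term). For FPKM, log2(FPKM + 1) was tested in limma 3.58.1 with a trend where the mean reached 1 FPKM, and small changes of low genes are understated on this scale. All p-values were adjusted by Benjamini-Hochberg over every gene tested. Each edgeR standard error is the fold change over the root of its F statistic. The edgeR and limma fits were first checked on simulated data. That simulation changed few genes and held no shift in composition between tissues, so it cannot speak to the choice of scaling. The intervals, and the floor of 3 reads, describe counting error alone. Libraries of 1 tissue always differed by more than sampling noise, with a chi-square of at least 38.9 for each degree of freedom.

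The members and marker lists were chosen with earlier results of these data known. Named genes were the 9 members, the other family genes found, the 4 called genes of the transport and of the hypoxia list with the largest change plus the largest in the rarer direction, and the 3 nearest profiles of the member with the highest mean FPKM. Single adipocyte, muscle, enterocyte, endothelial and stomach genes were named after their values were seen. As alternatives, the counts were scaled with DESeq2 size factors or library totals, filtered not at all or at 1 CPM, tested with the Wald test of DESeq2 1.42.0, blocked by replicate number, and refitted without each library. The FPKM fit was repeated with a pseudocount of 0.1 and without a filter. A count fit without small intestine replicates 1 and 2 was chosen after seeing the data.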

Additional observations from a re-analysis of the deposited data

Results flagged for a closer look

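Among 50 sets of 4 libraries (16 family genes in CPM and 9 members as a share of the members' FPKM sum, each in tumor and in small intestine), 8 held a library whose gap to its nearest neighbour was large against the range of the 4. Chance gives about 1 in 20 for normally distributed values. That rate does not apply to sets of near-zero reads, where 1 library with reads is enough, and the Car1 level and share count the same reads, so the 8 were not set against it. Car4 was highest in tumor replicate 3, at 30.3 CPM, with the other tumor libraries at 6.73 to 8.94 CPM. The same library was highest for Car1, at 0.237 CPM with the others at 0.0226 to 0.0441 CPM, and for the Car1 share, at 0.347% with the others at 0.121% to 0.135%. Car1 was highest in small intestine replicate 2, at 0.0530 CPM from 3 reads, with 0 reads in the others, and its share there was 0.0159%. Car5b was highest in tumor replicate 4, at 1.20 CPM with the others at 0.754 to 0.817 CPM, and the Car3 share was 0.256% in that library with the others at 0.0552% to 0.0615%. Car5a stood at 0.0113 CPM in tumor replicate 4 from 1 read, with 0 reads in the other tumor libraries. The values of Car1, Car3 and Car5a rest on few reads.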

How the results depend on the processing

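With TMM 4 members were lower and 0 higher in tumor (called by edgeR at an adjusted p under 0.05). The Car13, Car3 and Car4 changes kept direction and call under every count alternative, and edgeR without composition correction (library totals) gave 1 member higher. The higher count was 0 to 1 when a library was left out, reaching 1 without tumor replicate 4, and the lower count 4 to 6, reaching 6 without small intestine replicate 3. In the FPKM table the higher count was 1 to 2 and the lower count 2 to 3 over libraries left out. With library totals Car2 turned to 0.43, Car12 to 0.18 and Car14 to 0.066 on the log2 scale, and Car8 in FPKM ran from -0.24 without tumor replicate 3 to 0.085 without tumor replicate 4. With library totals also 9 transport partners were higher and 6 lower, 11 hypoxia targets were higher and 0 lower, and 0 of the other family genes were lower. On that scale 62% of all genes were higher and 17.6% lower. For these other family genes the lower count was 2 with no low-count filter, 2 by DESeq2 and 0 at a mean of at least 1 CPM, where the higher count was 0 too, since fewer genes were tested. Left-out libraries gave 2 higher and 1 lower of them, 5 to 6 higher and 9 to 10 lower transport partners, and 7 to 8 higher and 2 to 3 lower hypoxia targets. Whether same-numbered libraries share an animal is not given in the labels. Correlations of deviations from the tissue mean were -0.20 to 0.01 for same-numbered pairs. They cannot settle it, since tissues of 1 animal need not deviate alike. With the replicate number as a block 11893 genes in all were called (12649 without it), 4 members were lower and 0 higher, and the calls of single members were as without it. Beyond the shift between scalings, the cause of these differences was not tested. Depth limits Car1, Car14, Car5a, Car6, Car10 and Car15, and the FPKM scale limits Car3.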

Other observations

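Marker lists of other cell types that these bulk samples could hold were counted in the same test, as descriptions. In that test 38.9% of all genes were higher in tumor and 35.4% lower. All 8 endothelial genes were higher in tumor, with sums of 170 to 217 CPM in tumor against 10.7 to 28.6 CPM in small intestine. All 8 fibroblast genes were higher too. Of 5 tested red cell genes 5 were higher, and of 5 tested neural genes 4 were higher. Colon epithelium genes went both ways, with 4 higher and 5 lower of 9 tested. Pan-epithelial genes were lower in 7 of 8 cases and enterocyte genes in 12 of 12. The acinar pancreas list had 1 tested gene, Cela1, which was higher. Of 3 tested skeletal muscle genes 1 was higher and 2 were lower. With library totals 2 pan-epithelial genes were higher and 5 lower, and 1 muscle gene was higher and 1 lower. On that scale 62% of all genes were higher and 17.6% lower. The parts of these cell types in the levels of the carbonic anhydrases were not tested.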
